A study of Drosophila melanogaster with 3 samples.

Results

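The genes that encode the proteasome were examined for peaks of the zinc finger protein pad, known to repress achaete and scute, a pair of genes that start bristle formation. The members were all protein-coding genes whose symbols name an alpha or beta subunit of the 20S core particle or an Rpn or Rpt subunit of the 19S regulatory particle in the annotation of Ensembl release 115, which gave 34 of 13945 coding genes on the 6 chromosome arms. The material was chromatin of whole adult female Drosophila melanogaster of unknown age from the strain pad-GFP, a transgenic line that stably expresses pad with GFP at its C terminus. Chromatin was sonicated, immunoprecipitated with an anti-GFP antibody and sequenced as 3 biological replicates of 1 group, and peaks were called by the authors against control alignments. No other genotype, sex or stage was part of the group, so the data hold no comparison between conditions, and whole flies mix all tissues. Beyond calling them biological, the labels do not say whether the replicates came from separate batches of flies, so a spread between them covers what differed between these libraries.

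The proteasome degrades proteins that carry ubiquitin chains. Its 20S core is a barrel of stacked alpha and beta rings whose catalytic sites lie on beta subunits inside the chamber, and its 19S regulatory particle binds ubiquitin, removes it, unfolds the substrate and opens the gate in the alpha ring. In flies, as in mammals, a cap'n'collar factor (CncC, encoded by cnc) acts with a small Maf protein to raise the transcription of many proteasome genes together.

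Of the 34 proteasome genes, 13 (38.2%) had a summit at most 250 bp from a start site in the list of 6659 peaks that passed the analysis of the irreproducible discovery rate (IDR), against 24.4% of all coding genes. These were Prosalpha3, Prosalpha4, Prosalpha7, Prosbeta1, Rpn2, Rpn3, Rpn5, Rpn6, Rpn10, Rpn12, Rpn13, Rpt1 and Rpt5. The strongest peaks stood at Rpt5, Rpn5 and Rpn2, all of the 19S particle, and most of the others lay low in the list. The median signal at the 13 genes, the authors' own measure of peak strength with no stated scaling, was 362, against 543 over the 3407 coding genes called in this list. The 9 of 18 genes of the 19S particle (50%) compared with 4 of 14 genes of the 20S core (28.6%), and the difference between these shares was not tested.

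Upstream sequences of the genes with the strongest of these peaks are shown for the words that Rpt5 and Rpn2 hold and Rpn5 and Rpn10 lack. The printed stretches do not always contain the summit. Bases are from the RefSeq Release 6 fly genome (dm6) and run 5′ to 3′ on the gene's strand, stopping at the base before its start or earlier where another gene's exon begins. Offsets count from the first transcribed base as 0, and a negative offset lies upstream. Capitals mark CAACACTG or its reverse complement CAGTGTTG, a word that was found earlier in these same peaks, or TATCGATA, the DNA replication-related element (DRE), known as the binding site of the transcription factor DREF. Rpt5 encodes an ATPase of the ring that unfolds substrates, and all 41 bases that separate its start from that of the gene RanBP3 on the other strand are printed first (chr3R:23752835-23752875), followed by the pair of words that straddles the start (chr3R:23752863-23752885) and the DRE further upstream (chr3R:23752819-23752848).
Rpt5 upstream: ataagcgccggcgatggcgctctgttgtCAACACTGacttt
Rpt5 word pair: CAACACTGactttttCAGTGTTG
Rpt5 DRE: atcgctgtcacTATCGATAagcgccggcga

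The peaks that came next in strength stood at Rpn5 and Rpn2. Rpn5 is a scaffold subunit of the lid, and its stretch (chr3R:5789385-5789492) held neither word. Its IDR promoter summit lay outside this stretch, at chr3R:5789378, and neither word was found within 50 bp of it. Rpn2 is a large scaffold subunit of the base and was read over the last 200 bases before its start (chr3R:29153324-29153523), with the word CAACACTG just inside the transcribed region (chr3R:29153519-29153548).
Rpn5 upstream: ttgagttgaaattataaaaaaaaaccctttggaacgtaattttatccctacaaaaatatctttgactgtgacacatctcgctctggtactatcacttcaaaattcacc
Rpn2 upstream: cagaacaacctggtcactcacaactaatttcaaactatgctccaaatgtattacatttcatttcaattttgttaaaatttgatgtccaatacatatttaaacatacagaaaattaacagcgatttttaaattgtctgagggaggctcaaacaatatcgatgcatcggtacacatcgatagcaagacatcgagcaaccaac
Rpn2 word: ccaaccattacCAACACTGtctgcttaccg

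Rpn10, a ubiquitin receptor, and Rpn3, a lid subunit, followed. The stretch of Rpn10 (chr3L:21536862-21536999) held neither word. Its IDR summit lay outside this stretch, at chr3L:21537034, and neither word was found within 50 bp of it. The stretch of Rpn3 (chr2L:19051613-19051789) is shown because it contains an exact repeat of 72 bases, whose copies start at −177 and −99 and so lie 78 bp apart. Over the 23 upstream stretches read this way, the next longest exact repeat was 16 bases, at Prosbeta2.
Rpn10 upstream: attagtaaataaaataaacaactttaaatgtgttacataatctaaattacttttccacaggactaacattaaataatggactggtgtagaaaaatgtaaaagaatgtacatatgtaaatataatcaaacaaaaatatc
Rpn3 upstream: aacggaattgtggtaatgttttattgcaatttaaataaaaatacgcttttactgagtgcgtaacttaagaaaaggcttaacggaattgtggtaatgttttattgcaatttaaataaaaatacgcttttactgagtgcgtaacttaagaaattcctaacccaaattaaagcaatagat

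The DRE with its flanks is set out for genes with and without an IDR promoter summit, since the word was found in both. Rpn3 (chr2L:19051582-19051611) and Rpn12 (chr3L:16582801-16582830), both lid subunits, had such a summit.
Rpn3 DRE: tgttatcggagTATCGATAtcgaaaaggct
Rpn12 DRE: ttgttaaaataTATCGATAttaaagcacaa
Prosalpha6 (chr2L:10221324-10221353) of the alpha ring, Prosbeta2 (chr3L:14999930-14999959), whose protein carries the trypsin-like catalytic site, Prosbeta6 (chr3L:16610444-16610473) of the beta ring, and the lid subunits Rpn7 (chr3R:22462033-22462062) and Rpn9 (chr3R:23733418-23733447) had none.
Prosalpha6 DRE: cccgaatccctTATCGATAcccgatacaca
Prosbeta2 DRE: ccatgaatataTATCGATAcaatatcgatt
Prosbeta6 DRE: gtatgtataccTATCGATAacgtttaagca
Rpn7 DRE: gcggtataattTATCGATAattttggggtc
Rpn9 DRE: gcccggttaaaTATCGATAttctcgcggat

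As a contrast, the 200 bases before Prosbeta4 (chr2L:16732134-16732333), a beta ring subunit with no promoter summit in any list, are given. They held neither word.
Prosbeta4 upstream: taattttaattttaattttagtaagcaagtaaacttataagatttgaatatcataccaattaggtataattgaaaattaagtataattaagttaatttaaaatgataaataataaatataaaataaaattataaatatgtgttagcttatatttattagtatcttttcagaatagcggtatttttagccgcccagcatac

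Whether a proteasome gene counted as called depended on how deep the lists were read. The IDR list was identical to the 6659 strongest pooled peaks, and its lowest signal was 264. Among the 1000 strongest pooled peaks, 0 proteasome genes had a promoter summit, where 3.61% of coding genes did. Among the 3000 strongest there were 3 genes (8.82%) against 12.0%, and among the 5000 strongest there were 8 (23.5%) against 19.1%. Among the 8000 strongest there were 18 (52.9%) against 28.1%, and among the 10000 strongest there were 20 (58.8%) against 33.0%. In the whole pooled list of 30000 peaks and background regions, 27 genes (79.4%) were called against 50.7%. The share of proteasome genes was thus above that of coding genes from 5000 peaks on. At smaller depths the order varied. The share was lower at 1000 and 3000 peaks, higher at 2000 (8.82% against 7.69%) and lower at 4000 (14.7% against 15.6%).

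The ribosomal protein genes, another large set for an abundant complex, stood higher at every depth. In the IDR list 73 of 92 cytosolic ribosomal protein genes (79.3%) were called, with a median signal of 858, whereas 13 of 33 genes of the vacuolar ATPase (39.4%) were called with a median of 433. In this list the proteasome genes were therefore close to the vacuolar ATPase genes in share and lay below both sets in median signal. Read deeper, the 2 shares parted, with 58.8% of proteasome and 45.5% of vacuolar ATPase genes called among the 10000 strongest pooled peaks and 79.4% and 57.6% in the whole pooled list. In the full replicate lists 54.5%, 54.5% and 51.5% of the vacuolar ATPase genes had a promoter summit. The sets were not built alike. The vacuolar ATPase set took every symbol that starts with Vha, while the proteasome rule left out 13 duplicate subunit genes. Of those 13, 0 had an IDR promoter summit and 2 a pooled one. The differences between sets, and the part of the symbol rules in them, were not tested.

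**Figure D1:**
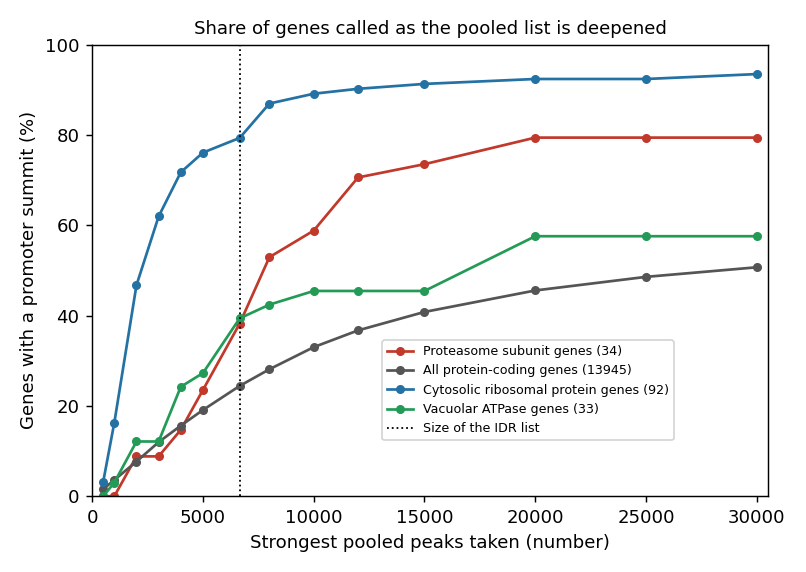
Share of genes (%) with a summit at most 250 bp from a start site, plotted against the number of strongest pooled peaks taken, for the 34 proteasome genes, all 13945 coding genes, 92 ribosomal protein genes and 33 vacuolar ATPase genes. The proteasome curve is at 0% at 500 and 1000 peaks and stays close to that of all coding genes up to 4000 peaks. It lies above that curve from 5000 on and ends at 79.4% at 30000 peaks.

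In the separate replicate lists, each of 30000 regions, 23, 29 and 26 proteasome genes had a promoter summit (67.6%, 85.3% and 76.5%), a mean of 26 ± 3.0 (SD, n = 3). The shares over all coding genes were 45.4%, 50.5% and 47.1%. When each replicate list was limited to its 6659 strongest peaks, the counts were 13, 15 and 13 (38.2%, 44.1% and 38.2%), a mean of 13.7 ± 1.15 (SD, n = 3), against 24.6%, 24.1% and 23.2% of coding genes. All 3 replicates thus gave a share above that of coding genes in both readings.

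A promoter summit in all 3 full replicate lists was found at 21 proteasome genes (61.8%), against 35.7% of coding genes. Among the 6659 strongest peaks of every replicate it was found at 7 (20.6%), namely Prosalpha4, Prosalpha7, Rpn2, Rpn3, Rpn5, Rpn10 and Rpt5, a share near the 17.7% of coding genes. No replicate list held one at Prosalpha1, Prosbeta4, Rpn12R or Rpn13R.

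Extended to 1 kb, the IDR list held a summit at 17 proteasome genes (50%) against 33.5% of coding genes, and the pooled list at 31 (91.2%) against 64.7%. A summit within 1 kb in every replicate list was found at 26 proteasome genes (76.5%), including all 8 lid genes, against 52.8% of coding genes. The 4 genes added in the IDR list were Prosalpha6, Rpn7, Rpn8 and Rpn11, 3 of which are lid genes. With them 7 of 8 lid genes (87.5%) had an IDR summit within 1 kb, next to 5 of 10 base genes (50%), 4 of 7 alpha genes (57.1%) and 1 of 7 beta genes (14.3%). In the pooled list all lid, base and beta genes and 6 of 7 alpha genes had a summit within 1 kb, where 64.7% of coding genes did.

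**Figure D2:**
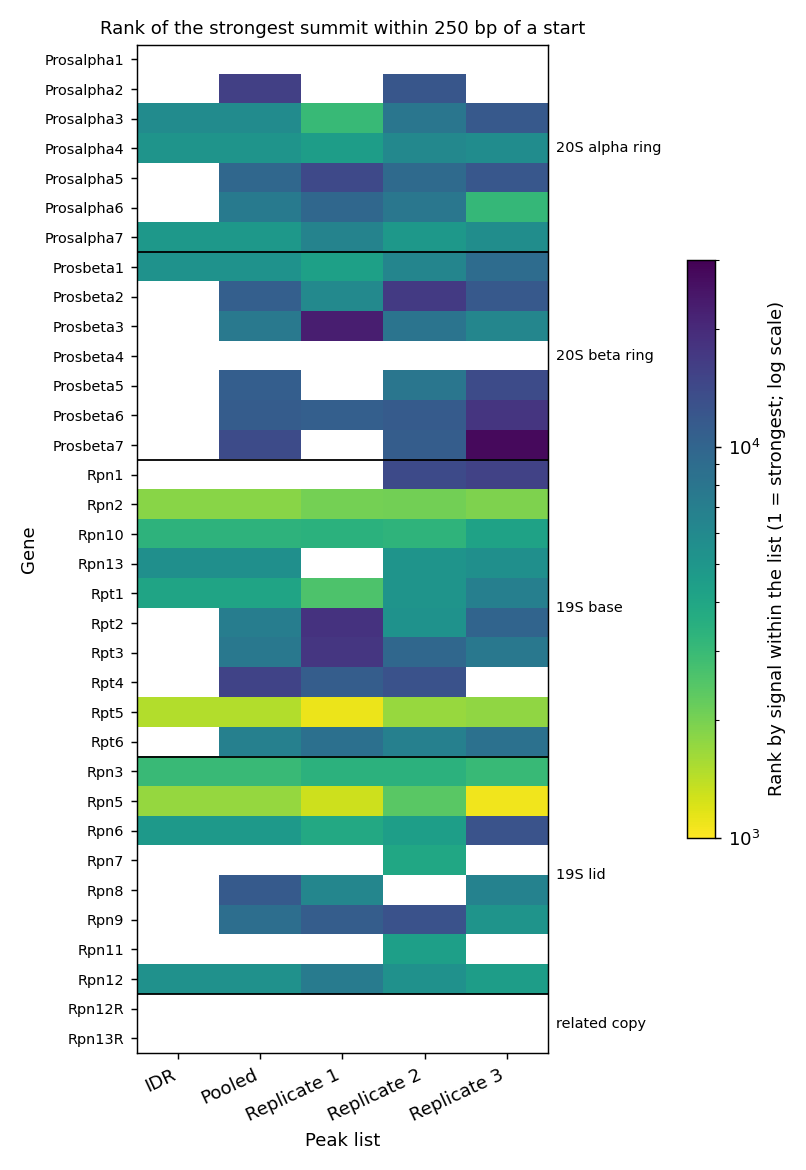
Rank by signal (colour, log scale, 1 is the strongest) of the strongest promoter summit (at most 250 bp from a start site) for the 34 genes (rows, grouped by role) in the IDR, pooled and 3 replicate lists (columns), with white where a list holds none. Rpt5, Rpn5 and Rpn2 are the lightest rows in all 5 lists, and the 2 related copies are white throughout.

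The alpha subunits form the outer rings of the core and its gate. Of the 7 genes, 3 had an IDR promoter summit. At Prosalpha7 the summit lay 66 bp upstream of the start in intergenic sequence (peak chr2R:9847657-9848146, pooled rank 4900, signal 351), and the overlapping peaks ranked 6542, 4864 and 5678 in replicates 1, 2 and 3 (mean 5695 ± 839, SD, n = 3). At Prosalpha4 it lay 181 bp upstream, within an intron of kat80 (chrX:16275844-16276333, rank 5189, signal 335), with replicate ranks of 4491, 6116 and 5757 (mean 5455 ± 854, SD, n = 3). At both genes the 3 replicates gave ranks within 1.5 times of each other.

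Prosalpha3, whose protein forms part of the gate, had the weakest of the called peaks, 88 bp upstream (chr2R:20994799-20994933, rank 5789, signal 302). Its replicate ranks of 3042, 7896 and 11591 (mean 7510 ± 4288, SD, n = 3) were far apart, with only replicate 1 inside the strongest 6659. Prosalpha6 had its IDR summit 344 bp upstream in an intron of Npc1a (chr2L:10220762-10221251, rank 4035, signal 421) and a weaker pooled summit at −112 (rank 7390, signal 238), below the end of the IDR list. In the replicate lists its promoter summits ranked 9624, 7752 and 3098.

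Prosalpha1, Prosalpha2 and Prosalpha5 had no IDR summit within 1 kb. Prosalpha5 had a pooled summit 2 bp from its start at rank 9609, and Prosalpha2 one 20 bp upstream at rank 15846. At Prosalpha1 the nearest pooled summit was 3206 bp away.

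The beta subunits form the inner rings, and Prosbeta1, Prosbeta2 and Prosbeta5 encode the catalytic ones. Prosbeta1, with the caspase-like site, was the only beta gene with an IDR promoter summit, 62 bp upstream in intergenic sequence (chr2R:16014604-16015093, rank 5274, signal 331). Its replicate ranks were 4329, 6422 and 8978 (mean 6576 ± 2328, SD, n = 3), so that replicate 3 placed it outside the strongest 6659.

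Prosbeta2, with the trypsin-like site, had its nearest IDR summit 17121 bp away and a pooled summit 110 bp upstream at rank 10679 (signal 162), with promoter summits at ranks 6038, 16871 and 11601 in the replicates. Prosbeta5, with the chymotrypsin-like site, had its nearest IDR summit 3519 bp away and a pooled summit 71 bp upstream at rank 10832 (signal 160). Replicate 1 held no promoter summit at Prosbeta5, and replicates 2 and 3 held one at ranks 7899 and 13871. The catalytic genes thus did not share a call, and 1 of 3 had an IDR promoter summit, where 24.4% of all coding genes had one. The other 2 had pooled summits at ranks 10679 and 10832.

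Of the other beta genes, Prosbeta3 came nearest to the end of the IDR list, with a pooled summit 38 bp upstream at rank 7622 (signal 231). Prosbeta6 had one 49 bp upstream at rank 11130 and Prosbeta7 one 90 bp downstream at rank 13813. At Prosbeta4 the nearest pooled summit lay 424 bp upstream at rank 23538, and no list held one within 250 bp. In the pooled list 6 of 7 beta genes had a promoter summit, the same number as among the 7 alpha genes, where 50.7% of coding genes had one.

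The base of the 19S particle holds the ring of Rpt ATPases and the subunits Rpn1, Rpn2, Rpn10 and Rpn13. Rpt5 had the strongest promoter peak of all proteasome genes, with its summit 23 bp upstream of the start, between the starts of Rpt5 and RanBP3 (chr3R:23752696-23752984, rank 1479, signal 999). In the replicates it ranked 1099, 1684 and 1768 (mean 1517 ± 364, SD, n = 3). Rpn2 followed with a summit 103 bp upstream (chr3R:29153345-29153593, rank 1830, signal 841) and the closest replicate ranks of all called genes, 2046, 2055 and 1918 (mean 2006 ± 76.6, SD, n = 3). Both peaks thus lay among the strongest 3000 of every replicate.

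The ubiquitin receptor Rpn10 had its summit in one of its own untranslated exons, 32 bp upstream of the nearer of its 2 starts (chr3L:21536935-21537126, rank 3319, signal 499). Its replicate ranks were 3431, 3300 and 4236 (mean 3656 ± 507, SD, n = 3). The ATPase gene Rpt1 had one 26 bp upstream, in an intron of CG17985 (chr2R:7653878-7654064, rank 4099, signal 415), with replicate ranks of 2601, 5155 and 6885 (mean 4880 ± 2155, SD, n = 3). Rpn13, the other ubiquitin receptor, had 2 IDR summits, at −250 (chr2R:13960409-13960898, rank 5541, signal 315) and at 4 bp inside the gene (rank 5727, signal 305). The peaks overlapping the stronger one ranked 6662, 5178 and 7177 (mean 6339 ± 1038, SD, n = 3). Rpn10 was inside the strongest 6659 in every replicate, whereas Rpt1 and Rpn13 missed it in at least 1.

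The remaining base genes had no IDR summit within 1 kb, and several lay just below the end of that list. Rpt6 had a pooled summit 39 bp upstream at rank 6860 (signal 256) with replicate ranks of 8556, 6834 and 8409. Rpt2, whose tail helps to open the core's gate, had one 10 bp inside the gene at rank 7054 (signal 249) with replicate ranks of 18171, 5319 and 10079. Rpt3 had its strongest pooled promoter summit at −239 and rank 7677, and Rpt4 one at −42 and rank 15142. Rpn1, a scaffold and ubiquitin-binding subunit, had no pooled promoter summit and was called in replicates 2 and 3 at ranks 13934 and 15336. For comparison, the weakest called gene, Prosalpha3, stood at rank 5789, and the 4 genes next below the end of the list were Rpt6, Rpt2, Prosalpha6 and Prosbeta3.

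The lid holds the deubiquitinating enzyme Rpn11, its partner Rpn8 and 6 scaffold subunits. Rpn5 had the strongest lid promoter peak, 115 bp upstream of its start in an untranslated exon of Hat1 (chr3R:5789280-5789558, rank 1703, signal 889), with replicate ranks of 1292, 2394 and 1078 (mean 1588 ± 706, SD, n = 3). A stronger peak lay 321 bp upstream in an intron of Hat1 (chr3R:5788979-5789332, rank 1293, signal 1105) and overlapped this one. When overlapping IDR peaks were merged and only the strongest summit of each region was kept, Rpn5 was lost and 12 genes stayed called. The replicate 3 peak at rank 1078 had its summit at −196, between the IDR summits at −115 and −321. Rpn3 had its summit 10 bp inside the gene (chr2L:19051555-19052044, rank 3002, signal 551) and replicate ranks of 3390, 3366 and 3027 (mean 3261 ± 203, SD, n = 3). Its peak spans the 72-base repeat printed above.

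Rpn6, the lid subunit that also touches the core's alpha ring, had a summit 92 bp upstream of its nearest start in its own intron (chr2R:14752118-14752607, rank 4749, signal 362). Its replicate ranks were 3854, 4439 and 12582 (mean 6958 ± 4879, SD, n = 3), the largest SD among the called genes. Rpn12 had one 104 bp upstream (chr3L:16582679-16583168, rank 5355, signal 326) with replicate ranks of 7317, 5361 and 4500 (mean 5726 ± 1444, SD, n = 3). Replicate 3 thus ranked Rpn6 far lower and Rpn12 higher than replicate 1 did.

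Rpn11 had its IDR summit 311 bp upstream (chr2L:5059856-5060345, rank 3183, signal 521), a stronger peak than at 9 of the 13 called genes. Rpn7 had one at −279 (chr3R:22462088-22462577, rank 4171, signal 408) and Rpn8 one at −652 in an untranslated exon of Slik (chr2R:24402273-24402404, rank 5249, signal 332). For Rpn7 and Rpn11 only replicate 2 placed a summit within 250 bp, at −249 and −50 and ranks 3945 and 4385, while replicates 1 and 3 placed the nearest at −251 and −339 for Rpn7 and at −284 in both for Rpn11. Rpn8 had a weaker pooled summit 48 bp upstream of the same start (rank 11436). Rpn9 had no IDR summit within 1 kb and a pooled one at −70 and rank 8825. The distance chosen therefore decided the call for Rpn7 and Rpn11, whose summits sat just beyond 250 bp.

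Rpn12R and Rpn13R, related copies that the symbol rule also takes in, had no promoter summit in any of the 5 lists. Their nearest IDR summits lay 52409 and 48107 bp away.

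At the 13 called genes the strongest IDR summits lay between 250 bp upstream and 10 bp downstream of the nearest start, with a median of −88, and 12 of the 13 (92.3%) were upstream. Over the 3407 called coding genes the median was −83, and 83.4% were upstream. With all IDR promoter summits counted, 12 of 14 at proteasome genes (85.7%) and 3142 of 3906 at coding genes (80.4%) were upstream. The proteasome shares include Rpn10 and Rpn6, whose summits lay inside the gene, upstream of an inner start only. In the replicates the summit at Rpn10 lay 27, 31 and 12 bp downstream of the nearest start. Summit positions moved between replicates: over the 21 genes with a promoter summit in all 3 replicates the median SD of the offset was 22.8 bp. At Rpn12 the 3 replicate summits fell within 15 bp of each other and at Rpt1 within 11 bp, whereas at Rpn3 they spanned 158 bp. At Rpn9 they lay at chr3R:23733030, 23733270 and 23733088. Offsets there run to the nearest start, which for replicate 2 was another one than for replicates 1 and 3.

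**Figure D3:**
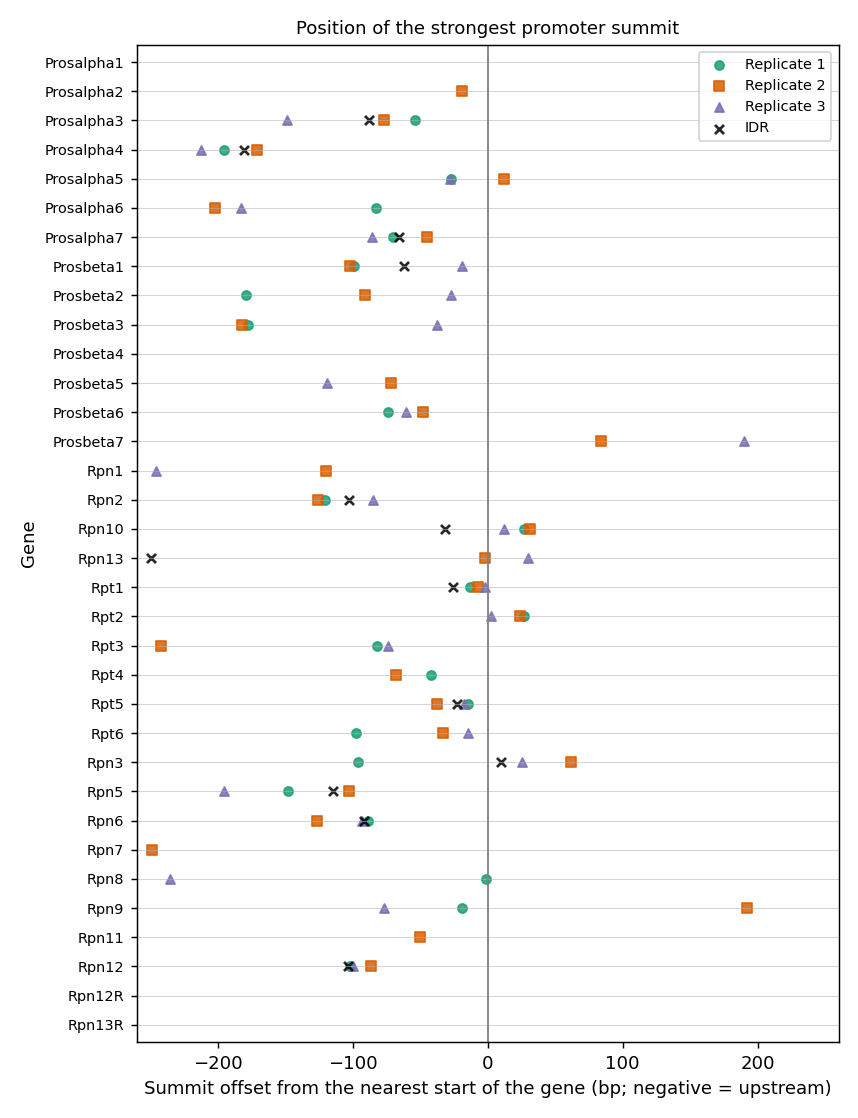
Offset (bp) from the nearest start of the gene to the strongest summit within 250 bp, for each of the 34 genes (rows) in replicates 1, 2 and 3 and in the IDR list, where negative is upstream. Most points lie to the left of the start, and rows without points are genes with no promoter summit in those lists.

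Proteasome genes often share a promoter region with a neighbour. A coding gene on the other strand started within 500 bp upstream of 21 of the 34 genes (61.8%), against 27.4% of all coding genes. Of these 21, 9 were called in the IDR list (42.9%), and of all coding genes so placed 47.3% were called. Of the other 13 proteasome genes 4 were called (30.8%), against 15.8% of the other coding genes. The share of proteasome genes called was thus slightly below that of coding genes among head-to-head genes and above it among the rest. How far the arrangement accounts for the members' share was not tested.

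The summit was nearer to the neighbour's start than to that of the proteasome gene in several pairs. At Rpn5 it lay 115 bp from Rpn5 and 6 bp from Hat1, and at Rpn13 the stronger summit lay 250 bp from Rpn13 and 21 bp from CtsL1. At Prosalpha4 it was 181 bp from the gene and 91 bp from kat80. The summit was almost midway at Rpt5, 23 bp from Rpt5 and 19 bp from RanBP3, and at Prosbeta1, 62 bp from Prosbeta1 and 59 bp from Rrp42. It was nearer to the neighbour also for the summits beyond 250 bp at Prosalpha6 (344 bp, against 55 bp from Npc1a), Rpn7 (279 bp, against 122 bp from AP-2mu) and Rpn8 (652 bp, against 31 bp from Slik), measured to the nearest of the neighbour's start sites, which need not be the one closest to the proteasome gene.

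In other pairs the proteasome gene was nearer. The distances were 66 bp at Prosalpha7 against 159 bp at CG1671 and 103 bp at Rpn2 against 155 bp at Slbp. They were 10 bp at Rpn3 against 188 bp at l(2)37Bb and 92 bp at Rpn6 against 158 bp at ave. Prosalpha3 was not among the 21, since its neighbour dgt3 started 519 bp upstream, and its summit lay 88 bp from Prosalpha3 and 431 bp from dgt3. When each IDR summit was given only to the nearest coding gene, 9 proteasome genes (26.5%) stayed called against 20.1% of coding genes, and Rpn5, Rpt5, Prosbeta1 and Prosalpha4 were lost. At Rpn5, among the 3 strongest promoters, the IDR summit was thus clearly nearer to the neighbour, and at Rpt5 only slightly so. The replicate summits at Rpt5 lay 15, 38 and 18 bp upstream, with 42 bp between the 2 starts. Those at Prosbeta1 lay 99, 102 and 19 bp upstream, with 121 bp between the starts. At Rpt5 and Prosbeta1 the nearer start therefore differed between replicates.

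**Figure D4:**
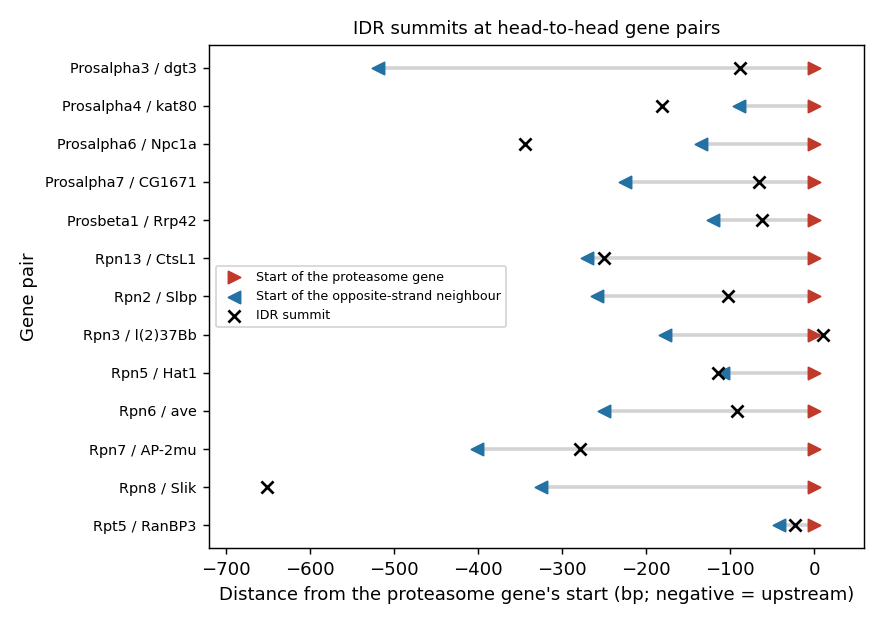
Position of the strongest IDR summit within 250 bp, or within 1 kb where there was none, at proteasome genes with an opposite-strand neighbour starting within 1 kb upstream, as distance (bp) from the proteasome gene's start. Red arrowheads are starts of proteasome genes, blue ones the neighbour's closest start and crosses the summits, and at Rpn5 and Rpn13 the cross sits beside the blue arrowhead.

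The members were spread over the genome: 2L held 4, 2R held 10, 3L held 6, 3R held 9 and X held 5. The called genes on these arms numbered 1, 6, 2, 3 and 1, against 24.4% of coding genes over all arms, and arms were not compared. Proteasome genes were short, with a median annotated length of 1382 bp against 2166 bp over all coding genes, and their promoters had a median GC content of 33.5% against 38.0%. In both respects they differ from the coding genes they are set beside, and the part of these differences in the calls was not tested.

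Words were searched on both strands in the 300 bp promoter, 250 bp before to 50 bp after the outermost start. The DRE, TATCGATA, was found in 12 of 34 proteasome promoters (35.3%), in 9.36% of all coding promoters and in 30.4% of ribosomal protein promoters. It was in 6.06% of vacuolar ATPase promoters and in 15.4% of promoters of coding genes called in the IDR list. The part of the lower GC content of proteasome promoters in their share was not tested. The 12 genes were Prosalpha3, Prosalpha5, Prosalpha6, Prosbeta1, Prosbeta2, Prosbeta6, Rpn3, Rpn7, Rpn9, Rpn12, Rpn13 and Rpt5. Of them 6 had an IDR promoter summit (50%), compared with 7 of the 22 without the word (31.8%). Over all coding genes the shares were 40.2% and 22.8%. The shorter word CGATA, which the DRE contains, was found in 28 proteasome promoters (82.4%) and in 47.4% of all.

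The DRE was close to the summit at some genes and not at others. The pooled summit was 4 bp from the centre of the nearest DRE at Prosalpha3, 8 bp at Prosbeta6, 18 bp at Prosalpha5 and 20 bp at Rpt5, but 108 bp at Rpn12, 204 bp at Rpn3 and 352 bp at Rpn9. The median over the 11 genes with both was 56 bp. In replicates 1, 2 and 3 it was 54, 105 and 98 bp, over 10, 12 and 11 genes. At Rpn9 the pooled summit belonged to an inner start, while words were searched at the outermost one. Within 50 bp to either side of the strongest IDR summit, the DRE was present at 3 of the 13 called genes, Prosalpha3, Rpn13 and Rpt5, and at 4.42% of the 3102 IDR summits near coding starts.

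CAACACTG was found in 3 proteasome promoters (8.82%), those of Rpn2, Rpt1 and Rpt5, and all 3 had an IDR promoter summit. It was present in 3.49% of all coding promoters, in 9.42% of those called in the IDR list and in 1.57% of the rest. The word was picked as frequent in these same peaks. These shares, the calls at the 3 genes and the distances that follow are therefore descriptions of that choice. At Rpt5 its copies, on opposite strands at −13 and 2, lay 14 and 28 bp from the IDR summit, and in the replicates the nearer copy lay 6, 28 and 8 bp away. At Rpt1 the distance was 12 bp and at Rpn2 112 bp.

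The core of the CncC-Maf site, TGACNNNGC, was found in 5 proteasome promoters (14.7%), those of Prosalpha2, Prosbeta3, Rpn1, Rpn7 and Rpt6, and in 8.63% of all coding promoters. None of these 5 proteasome genes had an IDR promoter summit, where 24.4% of all coding genes had one. Over coding genes the core was about as frequent in promoters called in the IDR list (8.92%) as in the rest (8.54%). Vacuolar ATPase promoters held it at 15.2%. Motif 7, searched by that name as CAGCNCTA or CATCNCTA, was found in 6 (17.6%) against 9.75%, and the TATA word TATAAA in 13 (38.2%) against 45.8%. The E-box CAGCTG occurred at 1 gene, Rpt3, against 17.7% of promoters. The E-box CACGTG (4.20% of all promoters), GAGAGAG (5.87%) and AGGGGAAA (0.803%) occurred at 0 of the 34.

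**Figure D5:**
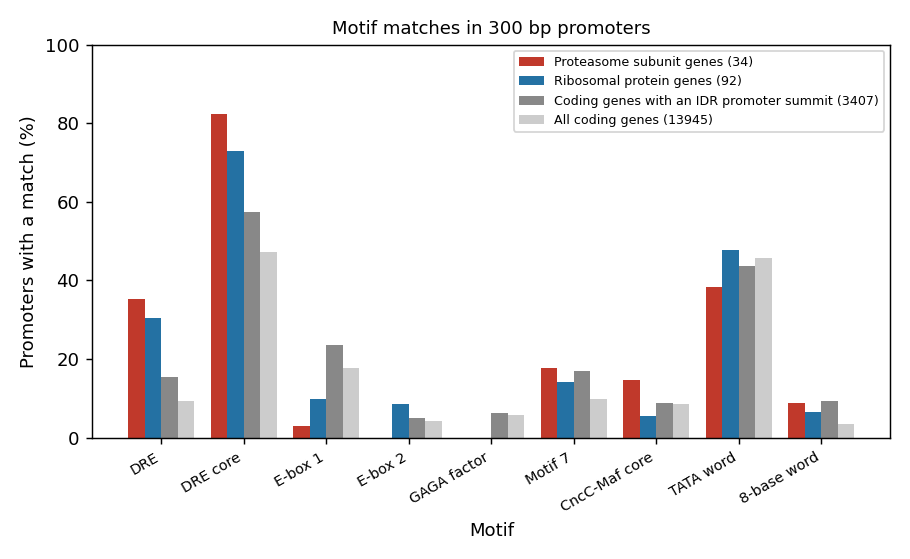
Share of 300 bp promoters (%) with a match on either strand, for the 34 proteasome genes, 92 ribosomal protein genes, 3407 coding genes with an IDR promoter summit and all 13945 coding genes. E-box 1 and 2 are the words CAGCTG and CACGTG and the 8-base word is CAACACTG. The DRE bar of the proteasome genes reaches 35.3% and that of all coding genes 9.36%.

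Genes that act with the proteasome were counted from lists, 33 symbols in all. Of the transcriptional control list, 4 of 6 genes had an IDR promoter summit, against 24.4% of coding genes: cnc, maf-S, rngo and Pngl. The peak at cnc, which encodes CncC, was far stronger than at any proteasome gene, with its strongest promoter summit at −208 (rank 180, signal 4998) and replicate ranks of 241, 172 and 174. The gene had 6 IDR summits within 1 kb of a start. These values were taken over all annotated starts of cnc, and which transcript the nearest start belongs to was not determined. Its small Maf partner maf-S had a summit at −124 (rank 4708, signal 365; replicate ranks 4370, 6680 and 4215). The protease gene rngo, whose relatives process the Nrf1-type factor in worms and mammals, had one at −66 (rank 3052, signal 543). Pngl, the N-glycanase gene, had one at −59 (rank 4704, signal 366). Keap1, which restrains CncC, had IDR summits within 1 kb only, and TER94, the p97 ATPase, had none there.

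Of the 5 genes of the ubiquitin supply list, 3 were called, where 24.4% of coding genes were. Ubi-p63E, a polyubiquitin gene, had a summit at −119 (rank 4503, signal 381), Ubi-p5E, another polyubiquitin gene, one 82 bp inside the gene (rank 2343, signal 687), and RpS27A, a fusion of ubiquitin with a ribosomal protein, one at −36 (rank 2374, signal 681). RpL40 and Uba1 were not called. Of 9 listed genes of binding, assembly and activation, 8 were matched and 2 called, a share near that 24.4%: Pomp, the maturation factor of the core, at −232 (rank 5867, signal 298), and the deubiquitinase gene Uch-L5 at −34 (rank 4218, signal 404).

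Of 13 duplicate subunit genes that the symbol rule leaves out, such as Prosalpha3T, Prosalpha6T and Rpt3R, 0 had an IDR summit within 1 kb, against 33.5% of coding genes, and 2, Prosbeta2R2 and Rpt6R, had a pooled promoter summit, against 50.7%. Together with Rpn12R and Rpn13R, none of the copies had an IDR promoter summit.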

How the data were processed

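Peak lists of 3 ChIP-seq replicates were analysed. Per the file lists deposited with the samples, the authors called peaks plus background regions, 30000 in each replicate and 30000 in the pool, with control alignments, as input for IDR, which 6659 passed. Which aligner and caller were used is not given in the sources used here. The authors deposited a signal value with unstated scaling, used to rank peaks within a list, a −log10 q-value, used in 1 alternative, and a summit position. The lists hold no read counts, so depth is unknown and no interval that needs it was computed. An exact binomial 95% interval over the 14 IDR promoter summits of proteasome genes, 57.2% to 98.2% upstream, served only to judge alternatives and covers counting alone. Ranks in a replicate are those of the strongest peak that overlapped the IDR peak by at least 50% of either; for genes without an IDR promoter summit they are those of the strongest summit within 250 bp. The dm3 lists were not used here.

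Coordinates are 1-based on dm6, with start sites of Ensembl release 115 and bases of the RefSeq genome of the same assembly. A gene was called when a summit lay within 250 bp of any of its start sites. Counts are set beside all coding genes, and no test was run, as there was 1 group. Members, gene lists and words were chosen with earlier results of these data known. Every member is named; full values are given for genes with an IDR promoter summit or an IDR summit at 251 to 1000 bp and for the catalytic genes, pooled positions for the rest were added after their values were seen, and listed pathway genes are named when called. Counting was tested on simulated data. Python 3.11.15, numpy 2.4.6, pandas 2.3.3 and matplotlib 3.10.9 were used.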

Additional observations from a re-analysis of the deposited data

How the results depend on the processing

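Of 66 alternatives, 50 stayed within the tolerance set, which was 1.5 times for a count, the binomial interval for the upstream share and 1 SD over replicates for the percentile. Within it, the count of 13 fell to 9 at 100 bp and with each summit given to the nearest coding gene only. Restricting the IDR list to its 3000 strongest peaks left 3 proteasome genes called within 250 bp or within 1 kb, 0 of the 20S core and 3 of the 19S particle, and its 1000 strongest peaks left 0 in each of these counts. Giving each summit to the nearest coding gene only left 10 genes within 1 kb and 2 of the 20S core. In the replicate lists the mean count was 3.33 with 3000 peaks and 26 with all peaks, and the pooled count was 8 with 5000 peaks, a number chosen after seeing the data. The median percentile of the called genes by signal among IDR promoter summits, 28.5, was 21.7 by q-value and 44.3 in replicate 1 alone. The DRE was found at 3 IDR summits within 50 bp to either side, a narrower search by construction. When IDR peaks had to recur among the 10000 strongest peaks of both other replicates, the counts without 1 replicate ran from 11 to 13 within 250 bp, 15 to 17 within 1 kb, 3 to 4 for the core and 8 to 9 for the 19S particle, Rpn6 and Prosalpha3 being lost without replicate 1 or 2, and the mean replicate count ran from 13.0 to 14.0. The filtered IDR list came from the pool of all 3 replicates, so a left-out replicate still shaped it. Counts from it could only stay or fall. The causes of these changes were not tested. No paired analysis was possible because there was 1 group. Depth is unknown, so a missing summit does not show absence of binding.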
